A study of Mus musculus with 2 samples.

Results

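The respiratory chain genes are the nuclear and mitochondrial genes whose products build complexes I to V of the inner mitochondrial membrane. They were taken by symbol: every gene whose symbol starts with mt-, and every gene matching the families Nduf, Sdh, Uqcr, Cox and Atp5. This gave 97 of the 28692 genes in the count tables. Of these, 13 are encoded by mitochondrial DNA, 7 for complex I, 1 for complex III, 3 for complex IV and 2 for complex V. The other 84 are nuclear, with 36 for complex I, 4 for complex II, 8 for complex III, 19 for complex IV and 17 for complex V. The symbol patterns also took in Atp5s and Atp5sl, which are named after ATP synthase but are not subunits of it. Ndufa4 was counted with complex IV, while the related Ndufa4l2 was counted by its symbol with complex I.

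The data were single-cell RNA libraries of A20 tumours, a mouse B-cell lymphoma line grown under the skin of Balb/c mice. TAK-981 is a small-molecule inhibitor of the enzyme that activates SUMO, a ubiquitin-like protein modifier. One library came from the TAK-981 arm (labelled TAK-981-001-J), given intravenously at 7.5 mg/kg, and 1 came from the vehicle arm, given 20% HPbCD (a cyclodextrin), both collected 8 h after the dose. Tumours were dispersed mechanically, dead cells were removed with a magnetic kit, and the 5′ ends of polyadenylated RNA were captured in droplets. With 1 library per arm there is no replicate, so no test was made: a difference below is one between 2 libraries, and every 95% interval covers counting error only.

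In the electron transport chain, complexes I and II take electrons from NADH and succinate, complex III passes them to cytochrome c, and complex IV hands them to oxygen. Complexes I, III and IV pump protons, and complex V, the ATP synthase, uses the gradient to make ATP. Complex II is built from nuclear products alone, while the other complexes mix nuclear and mitochondrial products, so the transcripts of one machine come from separate genomes with separate polymerases.

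Depth is given in UMIs (unique molecular identifiers, counted RNA molecules): 2396 barcodes and 37470319 UMIs with TAK-981 (median 11840.5), and 2579 barcodes and 57471750 UMIs with vehicle (median 19608). Cells with a Cd79a UMI and no Cd3 or Lyz2 UMI were taken as A20 cells (2029 TAK-981, 2279 vehicle), cells with at least 2 Cd3 UMIs as T cells (48 and 63), and cells with at least 5 Lyz2 UMIs as myeloid cells (39 and 44). Leaving out the genes that the gates use, the 6 other T-cell markers summed to 8.58 UMIs per 10000 with TAK-981 and 8.43 with vehicle in the T cells and to 0.0276 or less in the other classes, and the markers of monocytes and macrophages to 83.9 and 86.1 in the myeloid cells and to about 1.2 or less elsewhere. The 8 B-cell markers besides Cd79a summed to 32.8 and 29.7 in the A20 cells, but each was also detected in the other classes, at sums of 7.20 and 11.4 in T cells, where 66.7% and 74.6% of cells had such a UMI, and of 2.45 and 2.06 in myeloid cells. No doublet caller was run; no barcode passed both the T-cell and the myeloid gate, 10 of 48 and 14 of 63 T cells had a Cd79a UMI, and so did 4 of 39 and 4 of 44 myeloid cells. The libraries shared 11 barcodes.

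In A20 cells the mitochondrial genes were higher in the TAK-981 library and the nuclear genes were close to level. The 13 mitochondrial genes made up 3.40% of A20 UMIs with TAK-981 and 2.35% with vehicle, a log2 ratio of 0.53 (95% interval 0.53 to 0.54) or 1.45-fold. The 84 nuclear genes made up 3.03% and 3.11%, a log2 ratio of -0.04 (-0.04 to -0.04). The number of mitochondrial UMIs per nuclear UMI was therefore 1.12 with TAK-981 and 0.756 with vehicle, 1.49-fold apart.

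The split between the genomes ran through each mixed complex of the A20 cells. Pooled over genes, the log2 ratio for the mitochondrial and the nuclear genes was 0.59 and -0.02 in complex I, 0.55 and -0.01 in complex III, 0.52 and 0.01 in complex IV, and 0.49 and -0.10 in complex V. Complex II, with no mitochondrial gene, was at -0.07 (-0.09 to -0.04). All 13 mitochondrial genes were at least 1.2-fold higher with TAK-981, where 29.8% of the 12312 measured genes were, and 1, mt-Nd3, was at least 2-fold higher, where 3.84% of genes were; none was 2-fold lower, against 1.35%. In barcodes under 10% mitochondrial UMIs the 13 ratios ran from 0.22 to 0.82, with a median of 0.31. They ran from 0.10 to 0.70 (median 0.21) under 5%, and from 0.03 to 0.59 (median 0.11) in cells of 10000 to 20000 UMIs. Not all 13 were past 1.2-fold at these settings, and the matching share of all genes was taken at the main setting only. Of the 80 nuclear members measured (10 UMIs or more in both libraries together), 4 were at least 1.2-fold higher and 0 at least 1.2-fold lower, where 8.47% of genes were lower. Their median log2 ratio was -0.02, with 33 above 0 and 47 below (62.2% and 37.8% of genes), beside a median of 0.08 over all measured genes. The plot of the ratios by complex and genome sets the members of each class side by side.

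**Figure D1:**
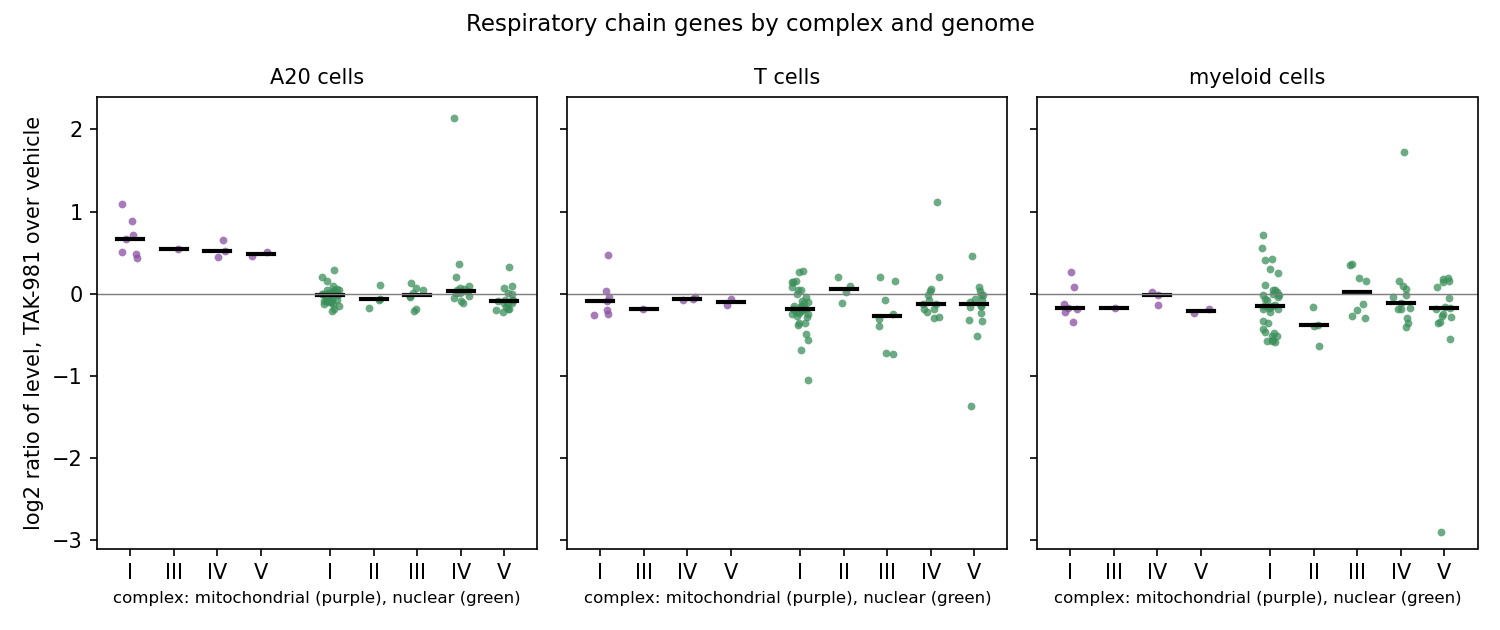
Log2 ratio of level (UMIs per UMI of the class), TAK-981 over vehicle, for each measured respiratory chain gene (points) by complex, mitochondrial genes in purple on the left and nuclear genes in green on the right of each panel, black bars at the median. In A20 cells all mitochondrial points lie between 0.44 and 1.09 while the nuclear points, apart from Cox4i2 at 2.14 (19 UMIs in all), lie between -0.22 and 0.36; in T and myeloid cells both kinds scatter around or below 0.

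The mitochondrial share per cell showed where the A20 difference lay. The median cell had 2.90% mitochondrial UMIs with TAK-981 and 2.09% with vehicle, and the upper quartiles were 6.12% and 3.16%. Of the TAK-981 A20 cells, 275 (13.6%, exact binomial 95% interval 12.1 to 15.1) had 10% or more mitochondrial UMIs, against 88 (3.86%, 3.11 to 4.74) of the vehicle cells. These cells held 23.5% and 7.44% of the mitochondrial UMIs of all A20 cells in their library. In T cells the medians were 2.03% and 2.06%, and in myeloid cells 1.62% and 1.59%. The libraries thus overlapped over most of the range in every class, and the A20 cells of the TAK-981 library had the longer upper tail.

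**Figure D2:**
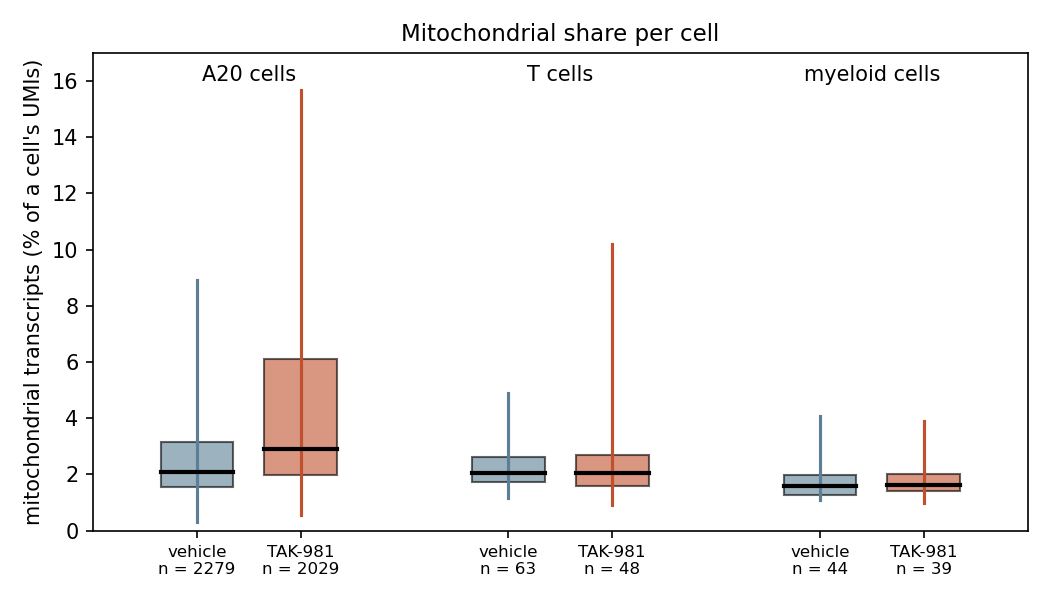
Mitochondrial UMIs as a percentage of all UMIs of a cell, by class and library (boxes from the lower to the upper quartile, thick line at the median, thin line from the 5th to the 95th percentile, n cells below). The A20 box reaches 6.12% with TAK-981 and 3.16% with vehicle, while the T-cell and myeloid boxes of the libraries nearly coincide. The thin line of the T cells reaches 10.2% with TAK-981 and 4.90% with vehicle.

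The mitochondrial share moved with the depth of the barcode. A20 cells had a median of 13826 UMIs with TAK-981 and 21578 with vehicle, and cells under 10000 UMIs were 37.3% of A20 cells with TAK-981 and 19.1% with vehicle. In those shallow cells the mitochondrial genes made up 7.99% and 4.85% of UMIs, a log2 ratio of 0.72 (0.71 to 0.73). The ratio was 0.13 (0.12 to 0.14) in cells of 10000 to 20000 UMIs, where each library had 618 cells, 0.16 (0.16 to 0.17) in cells of 20000 to 40000, and 0.08 (0.07 to 0.10) above that. Limiting both libraries to cells under 10% mitochondrial UMIs gave 0.31, and under 5% gave 0.21. Summed together, the mitochondrial genes were thus higher with TAK-981 in every depth range, by a much smaller amount outside the shallowest one. Single genes did not all follow: in cells of 40000 UMIs or more, mt-Co1 stood at -0.05 (-0.08 to -0.02) and mt-Atp8 at -0.05 (-0.08 to -0.01).

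Other transcripts shifted with depth and mitochondrial share too. In A20 cells under 10000 UMIs, Malat1, a long noncoding RNA kept in the nucleus, was at 40.1 per 10000 non-mitochondrial UMIs with TAK-981 and 20.0 with vehicle, and cytosolic ribosomal protein transcripts made up 27.3% and 31.6%. Between A20 cells under 1% and A20 cells of 10% to 20% mitochondrial UMIs, the nuclear respiratory chain genes went from 3.26% to 2.38% of non-mitochondrial UMIs with TAK-981 and from 3.27% to 2.52% with vehicle. Ribosomal protein transcripts went from 36.9% to 19.0% and from 37.6% to 19.9% over the same cells. Within a given range of mitochondrial share, the nuclear members of the libraries differed by a log2 ratio between -0.09 and 0.01. Over all A20 cells Malat1 was at 17.3 and 9.85 per 10000 (log2 0.81, 0.80 to 0.83), and a list of 9 stress genes that tissue dissociation can switch on stood at -0.58 (-0.61 to -0.56), with Fos at -1.26. The part of barcode depth and RNA quality in the mitochondrial difference was not tested.

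**Figure D3:**
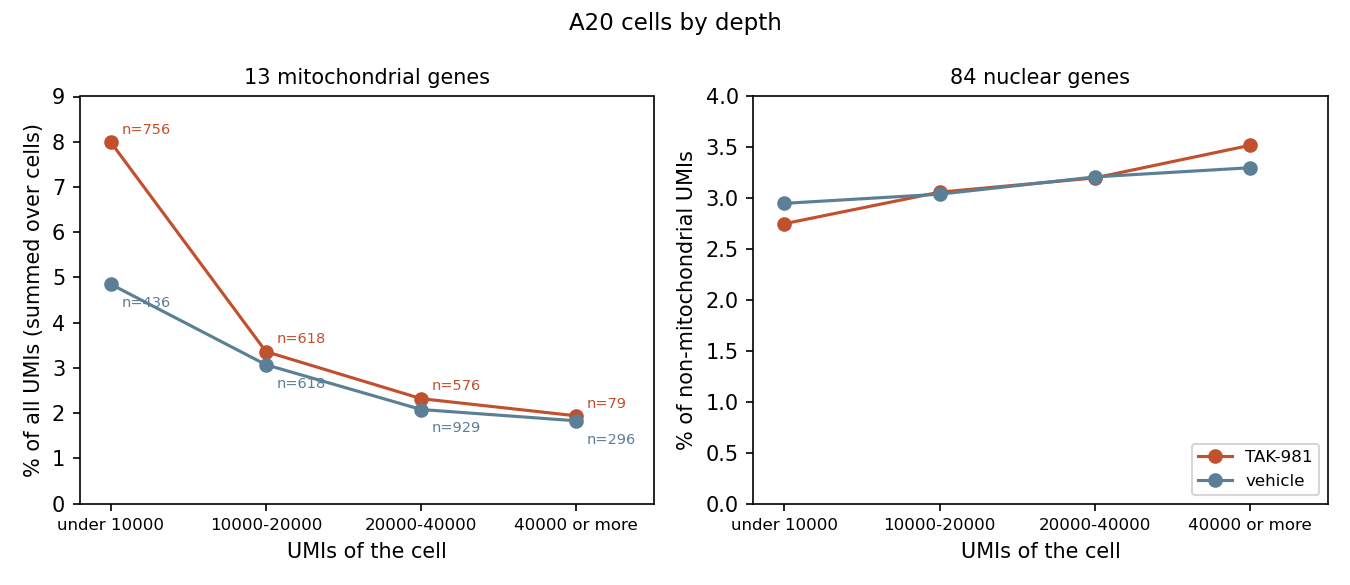
Share of UMIs from the 13 mitochondrial genes (left, % of all UMIs) and the 84 nuclear genes (right, % of non-mitochondrial UMIs) in A20 cells grouped by UMIs per cell, TAK-981 in red and vehicle in blue, n cells beside the points. The left curves lie far apart under 10000 UMIs (7.99% and 4.85%) and close together above (3.36% and 3.07% at 10000 to 20000), while the right curves stay between 2.75% and 3.52%.

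The mitochondrial genes are packed on one circular genome and are read as long transcripts that are cut at the tRNAs between them. On the reference genome (GRCm38, GENCODE annotation), 12 of the 13 lie on the plus strand, from mt-Nd1 at chrM:2751-3707 to mt-Cytb at chrM:14145-15288, and mt-Nd6, at chrM:13552-14070, lies on the minus strand. A pair of reading frames is shared within one RNA at 2 places, which are shown because a read that falls inside the shared bases cannot be given to either gene alone. The first is mt-Atp8, chrM:7766-7969, plus strand, whose last 43 bases, in capitals, are also the start of mt-Atp6. The second is the last 30 bases of mt-Nd4l, chrM:10144-10173, plus strand, whose final 7 bases, in capitals, open mt-Nd4.
mt-Atp8: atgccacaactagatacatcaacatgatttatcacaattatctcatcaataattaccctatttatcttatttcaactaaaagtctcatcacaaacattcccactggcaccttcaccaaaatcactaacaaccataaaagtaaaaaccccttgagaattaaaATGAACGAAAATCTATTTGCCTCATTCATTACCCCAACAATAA
mt-Nd4l: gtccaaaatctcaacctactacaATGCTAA

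In A20 cells, genes that share an RNA differed by similar amounts. For complex V, mt-Atp8 was at 33.7 UMIs per 10000 with TAK-981 and 24.5 with vehicle, a log2 ratio of 0.46 (0.45 to 0.47). Its partner mt-Atp6, which forms the proton channel next to the rotating ring, was at 52.0 and 36.6, a log2 ratio of 0.51 (0.50 to 0.52). The complex I pair mt-Nd4l and mt-Nd4, both membrane subunits, stood at 0.51 (0.50 to 0.53) and 0.48 (0.46 to 0.51). Genes on separate RNAs could be as close, since mt-Atp6 and mt-Nd4l both stood at 0.51.

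Among the catalytic genes of complex IV in A20 cells, mt-Co1, which carries the site where oxygen is reduced, was at 54.7 per 10000 with TAK-981 and 40.1 with vehicle (log2 0.45, 0.44 to 0.46). The copper-binding subunit mt-Co2 was at 51.7 and 35.9 (0.52, 0.52 to 0.53), and mt-Co3 at 31.5 and 19.9 (0.66, 0.65 to 0.67). Complex III contributes mt-Cytb, cytochrome b, at 36.1 and 24.6 (0.55, 0.54 to 0.56). The 3 subunits of complex IV thus did not share one ratio, and mt-Co3 lay above the other two by more than counting error.

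The widest range was in complex I. The mt-Nd5 transcript was at 6.72 and 4.96 per 10000 (log2 0.44, 0.41 to 0.46), mt-Nd4 at 8.76 and 6.27, and mt-Nd1 at 19.3 and 11.8 (0.71, 0.69 to 0.72). Next to mt-Nd1 on the genome, mt-Nd2 stood at 0.67 (0.65 to 0.69). The lone minus-strand gene mt-Nd6 was at 0.908 and 0.492 (0.88, 0.81 to 0.96). The highest ratio was that of mt-Nd3, at 2.64 and 1.24 (1.09, 1.05 to 1.14), or 2.13-fold. All of these lay above 0 in cells of 10000 to 20000 UMIs as well, where the 13 genes ran from 0.03 to 0.59 with a median of 0.11 and mt-Nd3 was again the highest.

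Taken as shares of the mitochondrial UMIs, which removes the level of the whole set, mt-Nd3 still differed between the libraries in A20 cells. It was 0.775% of mitochondrial UMIs with TAK-981 and 0.526% with vehicle, a log2 ratio of shares of 0.56 (0.51 to 0.61). That ratio was 0.55, 0.46, 0.50 and 0.39 from the shallowest to the deepest range of cells, so it varied less with depth than the level of the set did. The share of mt-Nd6 came next at 0.35 (0.27 to 0.43), though it was 0.11 (-0.04 to 0.26) in cells of 10000 to 20000 UMIs. That of mt-Nd1 stood at 0.18 (0.16 to 0.19), between 0.16 and 0.20 in the 4 ranges. Those of mt-Nd2 and mt-Co3 stood at 0.14 and 0.13, those of mt-Co1 and mt-Atp8 both at -0.08, and that of mt-Nd5 lowest at -0.09. Thinned to 4000 UMIs per cell, mt-Nd3 had a UMI in 58.1% of TAK-981 A20 cells (55.9 to 60.3) and 37.8% of vehicle A20 cells (35.8 to 39.9), against 87.0% and 80.4% before thinning, and no cell was too shallow to be thinned. Thinning sets total UMIs equal but leaves the level of the whole mitochondrial set in place. These percentages therefore follow the level of mt-Nd3 and cannot speak for its share. The same ratio of shares for mt-Nd3 was 0.57 (0.13 to 1.01) in T cells, from 76 and 106 UMIs, and 0.21 (-0.49 to 0.88) in myeloid cells, from 33 and 46.

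**Figure D4:**
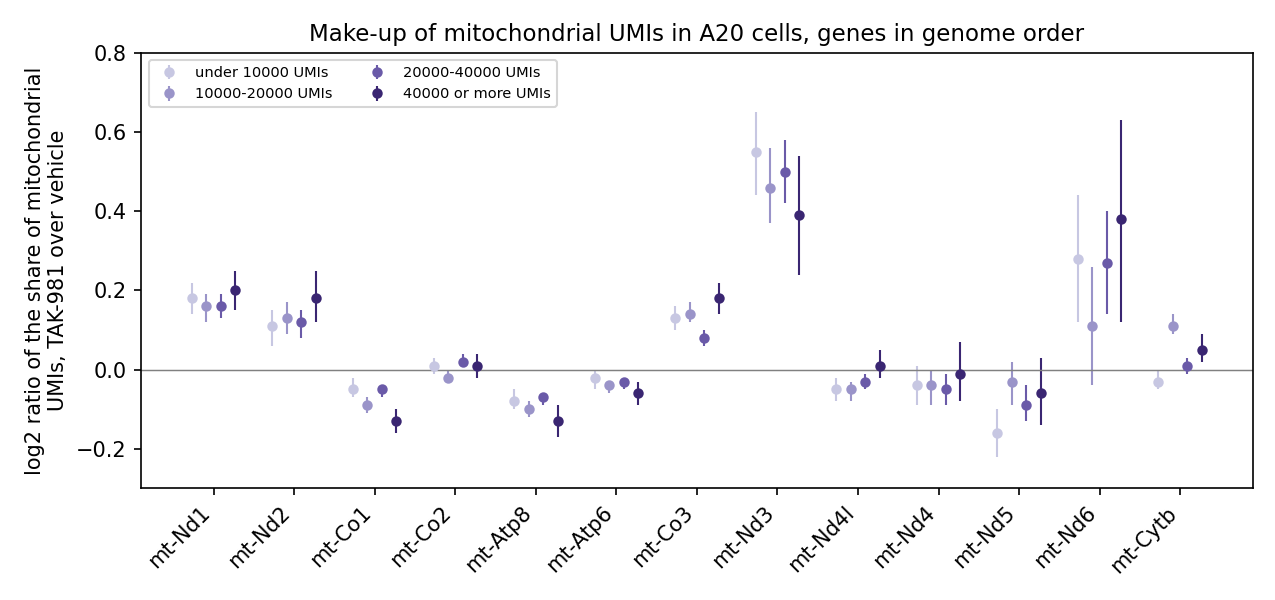
Log2 ratio, TAK-981 over vehicle, of each gene's share of mitochondrial UMIs in A20 cells, in 4 ranges of UMIs per cell (light to dark from shallow to deep, bars are 95% counting intervals), genes in genome order. The 4 mt-Nd3 points lie between 0.39 and 0.55, mt-Nd1 between 0.16 and 0.20, and mt-Co1 and mt-Atp8 below 0 in every range.

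Among the nuclear genes of complex I in A20 cells, the pooled ratio was -0.02 (-0.03 to -0.02), with 12 of 36 members above 0 and 24 below, where 62.2% and 37.8% of measured genes were. The 24 include Ndufa4l2 (-0.09), which was placed here by its symbol. Ndufv1, the subunit that binds FMN and takes electrons from NADH, was at 1.39 per 10000 with TAK-981 and 1.61 with vehicle, a log2 ratio of -0.21 (-0.26 to -0.16). The iron-sulfur subunit Ndufs7 stood at -0.18 (-0.22 to -0.14) and Ndufs8 at -0.08 (-0.13 to -0.03), while Ndufs1 stood at 0.01 (-0.07 to 0.08). The small accessory subunit Ndufa3 was the highest of the complex, at 1.64 and 1.34 per 10000 (0.29, 0.24 to 0.34). The electron-carrying core genes named here were thus level or lower, while accessory genes went both ways. Ndufa1 stood at 0.21 (0.16 to 0.26) and Ndufa9 at -0.15 (-0.21 to -0.10). The accessory Ndufa3 was the only member of the complex at least 1.2-fold higher, where 29.8% of measured genes were, and none was 1.2-fold lower (8.47%).

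In complexes II and III of A20 cells the differences stayed small. Above 0 were 1 of 4 members of complex II and 4 of 8 of complex III, where 62.2% of measured genes were. The highest of complex III was Uqcr11, at 0.13 (0.10 to 0.17). Sdha, the flavoprotein that oxidises succinate, was at 1.04 and 1.09 per 10000 (log2 -0.06, -0.12 to -0.00), and the iron-sulfur subunit Sdhb at 2.60 and 2.73 (-0.07, -0.11 to -0.03). The core proteins of complex III, Uqcrc1 and Uqcrc2, stood at -0.18 (-0.22 to -0.14) and -0.21 (-0.25 to -0.16). The Rieske iron-sulfur protein gene Uqcrfs1 was at 3.37 and 3.43 per 10000 (-0.03, -0.06 to 0.01), within counting error of no difference.

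Complex IV had the only nuclear set with a positive pooled ratio in A20 cells, 0.01 (0.00 to 0.01), and it was -0.07 when scaled by the median of ratios over genes. Cox4i1 was at 14.3 and 14.9 per 10000 (log2 -0.05, -0.07 to -0.04) and Cox5a at 5.69 and 6.13 (-0.11, -0.13 to -0.08). Cox8a (0.01), Cox7a2 (0.03), Cox6a1 (0.05) and Ndufa4 (0.06), a late-joining subunit of this complex, lay within 0.06 of 0, and Cox7a2l, a factor in supercomplexes, stood at -0.09. Several complex IV subunits have a second gene used mainly in heart and skeletal muscle or in other particular tissues. Cox6a2, the muscle form, was at 0.554 and 0.430 per 10000 (0.36, 0.28 to 0.45), the highest nuclear ratio among genes with at least 50 UMIs, and Cox7a1, also a muscle form, had 192 and 260 UMIs (0.21, -0.06 to 0.49).

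Cox6a2 UMIs were found mainly in the A20 cells. It had a UMI in 29.5% of TAK-981 and 33.3% of vehicle A20 cells, and in 14.3% (12.8 to 15.9) and 13.1% (11.8 to 14.6) of them after thinning to 4000 UMIs. In myeloid cells, with median depths of 8287 and 10636 UMIs, 1 of 39 and 0 of 44 had a UMI before thinning, and none after, which bounds the thinned shares at 9.03% and 8.04%. In T cells 3 of 48 (6.25%, 1.31 to 17.2) and 1 of 63 (1.59%, 0.0402 to 8.53) had one after thinning. The share of A20 cells with a UMI was thus similar in the libraries once depth was equal, beside the higher summed level. The remaining alternative forms were rare: in A20 cells Cox4i2 had 14 and 5 UMIs (log2 2.14, 0.58 to 3.96) and Ndufa4l2 had 15 and 25 (-0.09, -1.12 to 0.89), and Cox8b and Cox8c had no UMI in any class.

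Complex V as taken by symbol held the lowest pooled nuclear ratio in A20 cells, -0.10 (-0.10 to -0.09), with 5 members above 0 and 12 below, beside the 62.2% and 37.8% of measured genes. The 12 include Atp5s (-0.09) and Atp5sl (-0.07), which are not subunits of the ATP synthase. The catalytic subunit genes of its F1 head led downwards: Atp5b was at 12.6 per 10000 with TAK-981 and 14.7 with vehicle (log2 -0.22, -0.24 to -0.20), and Atp5a1 at 6.20 and 7.11 (-0.20, -0.22 to -0.17). The genes Atp5g1, Atp5g2 and Atp5g3 encode the same c-ring subunit, and stood at -0.18 (-0.20 to -0.16), -0.11 (-0.13 to -0.10) and -0.08 (-0.10 to -0.06). Atp5k, the small membrane subunit e, went the other way, at 1.26 and 1.01 per 10000 (0.33, 0.27 to 0.38). No scaling or cell limit in the alternatives turned the sign of Atp5b, Atp5a1, the c-ring genes or Atp5k.

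Short and long nuclear transcripts differed in their A20 ratios. Length was that of a gene's longest transcript tagged as principal, or of its longest transcript of any kind where none was tagged. Over 78 nuclear members with at least 50 UMIs, the ratio correlated with this length by a Spearman rho of -0.51, while over all 10649 such genes rho was 0.37. Genes are not independent replicates, and all points come from the same pair of libraries. Of the 18 members shorter than 600 bases, 15 lay above 0, with a median of 0.06, and of the 26 members of 1200 bases or more, 7 did, with a median of -0.09. Over all genes in those length ranges 163 of 237 (68.8%) and 6063 of 9421 (64.4%) lay above 0, with medians of 0.08 and 0.10, beside 83.3% and 26.9% of the members. The relation within the members stood at -0.53 in cells under 10% mitochondrial and at -0.42 in cells of 10000 to 20000 UMIs, and at -0.21 in T cells (74 members) and -0.05 in myeloid cells (73 members). Atp5k (371 bases) and Ndufa3 (515 bases) are among the short ones, and Ndufv1 (1661), Uqcrc2 (1896), Atp5b (1916) and Atp5a1 (2471) among the long ones.

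**Figure D5:**
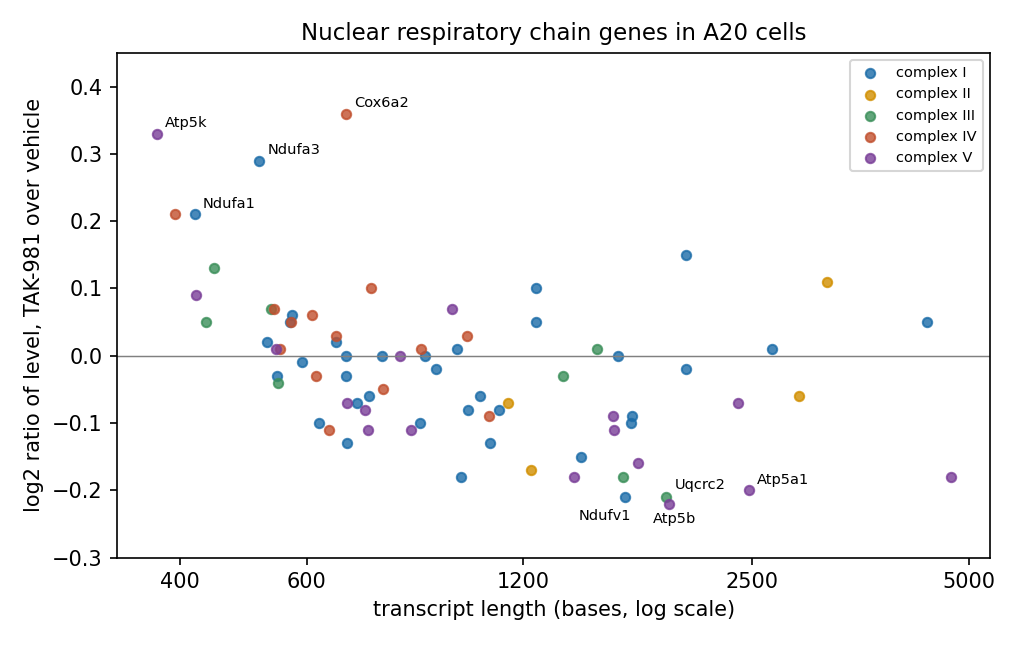
Log2 ratio of level in A20 cells, TAK-981 over vehicle, against transcript length (log scale) for the 78 nuclear members with at least 50 UMIs, coloured by complex. Length is that of the longest transcript tagged as principal, or of the longest of any kind where none is tagged. Points under 600 bases lie mostly above 0 (15 of 18) and points of 1200 bases or more mostly below (7 of 26 above).

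Nuclear respiratory chain promoters are known for sites of NRF1, of ETS factors such as GABP (also called NRF2) and of YY1. Promoters (250 bases before to 50 after the start; RefSeq, GRCm38.p6) were matched for 66 of the 84 nuclear members and searched on both strands for the 10-base NRF1 consensus, the sixth base of which was left free (the capitals of Atp5k below are 1 of its forms), CCGGAAG (ETS) and AAGATGGC (YY1). The NRF1 letters were found in 17 of the 66 (25.8%) and in 5.19% of all 27025 promoters, the ETS letters in 16 (24.2%) and 9.93%, and the YY1 letters in 9 (13.6%) and 3.19%. At least one of the 3 was in 36 members (54.5%) and in 16.4% of all promoters. The median A20 ratio was -0.06 with and -0.01 without the NRF1 letters, -0.01 and -0.03 for ETS, and 0.00 and -0.03 for YY1, so these medians lay within 0.06 of each other. A match describes the letters of this window alone.

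Of these promoters 4 are shown, each as the 250 bases before the start on the gene's strand with matches in capitals: those of Atp5k, at the top of complex V, of Atp5b, at the bottom, of the c-ring gene Atp5g2 and of the ubiquitous complex IV form Cox6a1. They lie at chr5:108434400-108434649 (minus strand), chr10:128083057-128083306 (plus), chr15:102671048-102671297 (minus) and chr5:115348959-115349208 (minus). In the printed bases Atp5k and Atp5g2 hold 1 NRF1 match each, Cox6a1 holds 2 NRF1 matches and 1 ETS match, and Atp5b holds none of the 3 motifs. Atp5k also has an ETS match in the searched window that reaches past the start and is not marked here. No printed match overlaps another.
Atp5k: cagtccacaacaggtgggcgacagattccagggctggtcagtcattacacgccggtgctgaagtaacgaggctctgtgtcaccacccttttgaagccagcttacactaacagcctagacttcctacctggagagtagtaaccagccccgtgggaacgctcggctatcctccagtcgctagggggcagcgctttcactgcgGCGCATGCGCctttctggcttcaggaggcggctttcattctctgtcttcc
Atp5b: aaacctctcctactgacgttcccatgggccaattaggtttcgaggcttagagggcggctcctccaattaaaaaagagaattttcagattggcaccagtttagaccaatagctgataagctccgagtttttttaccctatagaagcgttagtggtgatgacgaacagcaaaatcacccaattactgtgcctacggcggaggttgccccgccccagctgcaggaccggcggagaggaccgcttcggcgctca
Atp5g2: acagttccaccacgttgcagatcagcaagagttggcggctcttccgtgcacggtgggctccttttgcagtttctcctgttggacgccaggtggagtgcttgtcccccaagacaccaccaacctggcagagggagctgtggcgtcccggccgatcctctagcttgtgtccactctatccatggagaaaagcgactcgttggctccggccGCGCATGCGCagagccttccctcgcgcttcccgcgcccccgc
Cox6a1: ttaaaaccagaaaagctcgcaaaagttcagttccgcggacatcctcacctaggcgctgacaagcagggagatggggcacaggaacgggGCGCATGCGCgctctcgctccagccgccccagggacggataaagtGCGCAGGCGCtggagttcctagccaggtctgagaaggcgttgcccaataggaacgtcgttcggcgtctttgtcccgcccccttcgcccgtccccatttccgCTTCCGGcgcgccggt
Of the pair with opposite A20 ratios in complex V, Atp5k thus carries the NRF1 and ETS letters and Atp5b carries neither. Atp5g2, with the same NRF1 letters as Atp5k but no ETS match, had a ratio of -0.11.

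In T cells neither set of genes was higher with TAK-981 in the summed counts. The mitochondrial genes made up 2.39% of T-cell UMIs with TAK-981 and 2.56% with vehicle, a log2 ratio of -0.10 (-0.14 to -0.07), with 2 genes above 0 and 11 below, where 52.6% of measured genes lay below 0. It was 0.12 when each cell counted alike and 0.03 under a stricter gate without Lyz2 or Cd79a UMIs, so its sign was not stable. The nuclear genes made up 2.42% and 2.64%, a ratio of -0.13 (-0.16 to -0.10), and 0.10 in the 10 and 12 cells of 10000 to 20000 UMIs. There were 0.988 mitochondrial UMIs per nuclear UMI with TAK-981 and 0.971 with vehicle.

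Single nuclear members in T cells rested on few UMIs. Of 76 measured, 3 were at least 1.2-fold higher and 19 at least 1.2-fold lower, where 30.2% and 33.7% of the 7962 measured genes were, and their median was -0.15 beside -0.05 over all genes. Past 2-fold were 1 higher (6.58% of genes) and 2 lower (8.60%), of which Cox6a2 had 9 and 8 UMIs and Atp5sl 5 and 25. Among members with at least 50 UMIs the lowest were Ndufs1, the largest iron-sulfur subunit of complex I, with 13 and 52 UMIs (log2 -1.05, -2.05 to -0.15), Uqcr11 with 60 and 192 (-0.73, -1.17 to -0.30), Uqcrc1 with 66 and 210 (-0.72, -1.14 to -0.31) and Ndufc1 with 36 and 112 (-0.69, -1.27 to -0.13). In cells of 10000 to 20000 UMIs these 4 stood at 0.32, -0.34, -0.07 and 0.19. The c-ring genes Atp5g1, Atp5g2 and Atp5g3 stood at -0.51 (-0.77 to -0.25), -0.33 (-0.50 to -0.16) and -0.23 (-0.41 to -0.04), in the same order as in A20 cells, though these 3 intervals overlap, and Atp5g3 stood at 0.23 in cells of 10000 to 20000 UMIs. The highest of the members with at least 50 UMIs were Atp5k (0.46, -0.09 to 1.01), Ndufa2 (0.28, -0.04 to 0.59), Ndufa3 (0.26, -0.20 to 0.70) and Uqcrb (0.21, -0.18 to 0.60), each with an interval that includes 0. In T cells Malat1 was 1.72-fold higher with TAK-981, at 21.8 and 12.7 per 10000, beside a mitochondrial set that was not higher in the sums. The 9 B-cell markers summed to 8.40 and 12.9 per 10000 in the T cells, against 38.1 and 34.3 in the A20 cells, and 4 NK-cell markers to 2.29 and 0.451. Their part in the T-cell ratios was not tested.

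Myeloid cells resembled the T cells in size and direction. The mitochondrial genes made up 1.83% and 2.00% of UMIs, a log2 ratio of -0.13 (-0.17 to -0.08), with 10 of 13 below 0 (55.6% of measured genes), and 0.17 under a stricter gate without Cd3 or Cd79a UMIs. The nuclear genes made up 2.31% and 2.53%, also -0.13 (-0.17 to -0.09), and the mitochondrial UMIs per nuclear UMI were 0.792 in both libraries. Of 76 nuclear members measured, 8 were at least 1.2-fold higher and 25 at least 1.2-fold lower, where 31.1% and 40.1% of the 6417 measured genes were, and the median was -0.16 beside -0.09 over all genes. Past 2-fold were Cox6b2, higher with 9 and 4 UMIs (10.8% of genes were), and Atp5sl, lower with 1 and 11 (14.3%). Malat1 was at 28.4 and 19.6 per 10000 in these cells, and the 9 B-cell markers at 2.87 and 2.21. The 4 neutrophil markers summed to 2.12 and 0.487 per 10000, the 4 NK-cell markers to 0.551 and 0, and the 9 dissociation stress genes stood at a log2 ratio of 0.23 (0.14 to 0.32). The part of these in the myeloid ratios was not tested.

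By role, complex II held the lowest pooled nuclear ratio in myeloid cells, -0.33 (-0.61 to -0.06), and its flavoprotein gene Sdha, with 20 and 46 UMIs, the lowest of the members with at least 50 UMIs (-0.64, -1.48 to 0.14). The complex I genes Ndufa9 (-0.59, -1.45 to 0.23), Ndufc1 (-0.58, -1.08 to -0.09) and Ndufb8 (-0.57, -0.94 to -0.21) followed. Complex III stood at 0.06 (-0.07 to 0.18), with the Rieske gene Uqcrfs1 at 3.94 and 3.07 per 10000 (0.36, 0.03 to 0.69). Ndufa5 (0.72, 0.01 to 1.43), Ndufb3 (0.42, -0.15 to 1.00) and Ndufa3 (0.41, -0.20 to 1.01) were the other highest members with at least 50 UMIs. Under that limit Ndufa3 was among the 4 highest nuclear members in each of the 3 classes, and Ndufc1 among the 4 lowest in T and myeloid cells but at 0.10 (0.05 to 0.15) in A20 cells.

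Between classes of one library, the nuclear genes took a larger share in the tumour cells. The log2 ratio of A20 over T cells was 0.33 (0.30 to 0.35) with TAK-981 and 0.24 (0.22 to 0.26) with vehicle, and of A20 over myeloid cells 0.39 (0.36 to 0.42) and 0.30 (0.27 to 0.32). A20 cells were also deeper, at medians of 13826 and 21578 UMIs against 6660.5 and 9065 in T cells and 8287 and 10636 in myeloid cells. Within A20 cells the nuclear share of non-mitochondrial UMIs rose with depth. It went from 2.75% under 10000 UMIs to 3.52% at 40000 or more with TAK-981, and from 2.95% to 3.30% with vehicle. The part of depth in the difference between classes was not tested. The mitochondrial genes were higher in A20 than in T cells with TAK-981 (0.51, 0.49 to 0.54) and lower with vehicle (-0.12, -0.14 to -0.10). Of 72 nuclear members with at least 20 UMIs in each host class and library, 48 (66.7%) were higher in A20 cells in all 4 of these comparisons and 3 (4.17%) lower in all 4, where 32.8% and 33.1% of the 1706 genes that passed the same limit were. The limit of 20 UMIs was set on the small host sums and not on the A20 sums. Genes low in host cells were therefore left out of both shares, among them Ndufs1, which was higher in A20 cells in all 4. These shares thus depend on the limit. Comparisons within a library share their A20 cells. The 3 lower members, named because of this result, were Ndufa1, Ndufb7 and Uqcrb. Uqcrb, a small subunit of complex III, was at 1.22 per 10000 in A20 and 3.06 in myeloid cells with TAK-981, and at 1.16 and 3.73 with vehicle (log2 -1.33 and -1.68).

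Other genes that serve the chain were described in the same A20 cells. The 77 mitochondrial ribosomal proteins, which translate the 13 mitochondrial messages, had a pooled log2 ratio of -0.07 (-0.07 to -0.06), with 15 above 0 and 62 below (62.2% and 37.8% of measured genes), and none past 1.2-fold (29.8% of genes were higher and 8.47% lower). The 28 measured genes of mitochondrial transcription and RNA handling stood at -0.00 (-0.02 to 0.02), with 15 above 0, from Fastkd2 at -0.34 to Fastkd1 at 0.41. The import channels (22 genes) were at -0.07 (-0.08 to -0.06) and the enzymes of the tricarboxylic acid cycle (14 genes) at -0.12 (-0.14 to -0.11), with Idh2, the mitochondrial NADP-linked isocitrate dehydrogenase, lowest at -0.58 (-0.73 to -0.43). The pooled ratios of these 4 lists thus lay at or below 0 beside the higher mitochondrial messages.

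Assembly factors and regulators in A20 cells had pooled ratios above 0, as most measured genes did. Factors for complex I (15 measured) stood at 0.04 (0.01 to 0.07) and factors for complexes II to V (31 measured) at 0.05 (0.03 to 0.07), of which Sco2, a copper chaperone of complex IV, had 90 and 71 UMIs (0.99, 0.53 to 1.46). Regulators of mitochondrial biogenesis (12 measured) stood at 0.15 (0.11 to 0.18), with 8 of 12 above 0 and a median of 0.08, the same as that over all measured genes, and were led by the deacetylase gene Sirt1 (0.73, 0.55 to 0.92) and the GABP subunit gene Gabpb2 (0.61, 0.49 to 0.73), while Ppargc1b was at -0.24 and Nrf1 at -0.16. Carriers and coenzyme Q genes (12 measured) stood at -0.06 (-0.09 to -0.04). The 5 chain subunits that the symbol patterns miss stood at 0.04 (0.03 to 0.06), with 2 above 0 and 3 below (62.2% and 37.8% of measured genes). They ran from Ndufab1 at -0.15 and Cyc1 at -0.14 up to a highest ratio of 0.21.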

How the data were processed

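Each library was deposited as a table of UMI counts per gene and barcode, made by the authors with Cell Ranger 2.1.1 and followed by Seurat 2, per the submitters' processing notes. The genome build is not given in the sources used here. From the deposited counts, barcodes with fewer than 200 genes were left out (8 TAK-981, 6 vehicle, none in a class). UMIs were summed per class and library with Python 3.11.15, numpy 2.4.6, scipy 1.17.1 and pandas 2.3.3, and scaled by all UMIs of the class. Ratios carry exact conditional binomial 95% intervals, which cover counting error only; the script was checked on simulated data. A gene counted as measured with 10 UMIs in both libraries together. No limit was set on the mitochondrial share, which the members make up.

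The members and gene lists were chosen with earlier results of these data known. Named genes were the 13 mitochondrial genes, the catalytic core, the paralogue sets, and in each class the 4 highest and 4 lowest nuclear members with at least 50 UMIs, and for other lists the 2 highest and 2 lowest. Cycs, Pnpt1, Ndufa1, Ndufb7, Cox6b2 and Atp5sl were named after their values were seen. Transcript lengths came from GENCODE (GRCm38) and promoters from RefSeq. Splits by depth, by mitochondrial share and by transcript length were added after seeing the data.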

Additional observations from a re-analysis of the deposited data

Results flagged for a closer look

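The mitochondrial set differed in sign between cell classes under the same contrast: its pooled log2 ratio, TAK-981 over vehicle, was 0.53 in A20 cells, where all 13 genes lay above 0, -0.10 in T cells and -0.13 in myeloid cells. The sign in the host cells was not stable: the T-cell value was 0.12 with each cell weighted alike and 0.03 under the stricter gate, and the myeloid value was 0.17 under the stricter gate. With 1 library per arm, this difference between classes was not tested.

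Of the single genes, mt-Nd2, a membrane subunit of complex I, was past 1.2-fold in opposite directions with counting intervals on opposite sides of 0, at 0.67 (0.65 to 0.69) in A20 cells and -0.34 (-0.59 to -0.09) in myeloid cells. In myeloid cells mt-Co2 (-0.14), mt-Atp8 (-0.23), mt-Atp6 (-0.19), mt-Nd4l (-0.22) and mt-Cytb (-0.17) also had intervals below 0, beside intervals above 0 in A20 cells, with ratios under 1.2-fold. These myeloid signs were not stable. Under the stricter gate mt-Co2 stood at 0.14, mt-Atp8 at 0.15, mt-Atp6 at 0.21, mt-Nd4l at 0.08 and mt-Cytb at 0.13. There mt-Nd2 stood at -0.12 in myeloid cells, and in A20 cells of 10000 to 20000 UMIs it stood at 0.26. In T cells mt-Nd1 (-0.20), mt-Atp8 (-0.14), mt-Nd4l (-0.26), mt-Nd4 (-0.24) and mt-Cytb (-0.18) had intervals below 0, with ratios under 1.2-fold. With each cell weighted alike mt-Atp8 stood at 0.08, mt-Nd4 at 0.04 and mt-Cytb at 0.07. The T-cell ratios of mt-Nd1 and mt-Nd4l stayed below 0 in all 8 alternatives, the highest being -0.02 and -0.07. None of these differences was tested.

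Barcodes that met no class gate, which the comparisons do not use, also held mitochondrial signal: 6.50% of their UMIs in the TAK-981 library (272 barcodes) and 3.85% in the vehicle library (187 barcodes), a log2 ratio of 0.75 (0.74 to 0.77). The nuclear members made up 2.29% and 2.66% of UMIs in the same barcodes.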

How the results depend on the processing

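No paired analysis was possible because each arm has 1 library and the labels give no shared replicate numbers. All values are log2 ratios, TAK-981 over vehicle. In A20 cells the mitochondrial set (0.53) stood at 0.31 in barcodes under 10% mitochondrial UMIs, 0.21 under 5%, 0.55 scaled by non-mitochondrial UMIs, 0.45 by the median of ratios, 0.76 with each cell weighted alike, 0.43 under the stricter gate and 0.13 in cells of 10000 to 20000 UMIs. In the same order the nuclear set (-0.04) stood at -0.02, -0.00, -0.02, -0.12, -0.09, -0.02 and 0.00. The A20 mitochondrial to nuclear ratio (0.57) stood at 0.33 under 10%, 0.21 under 5%, 0.86 with cells weighted alike, 0.45 under the stricter gate and 0.13 at 10000 to 20000 UMIs. In T cells those 5 settings gave -0.18, -0.24, 0.12, 0.03 and -0.48 for the mitochondrial set (-0.10) and -0.06, -0.13, 0.29, 0.21 and -0.58 for the mitochondrial to nuclear ratio (0.03), and the last 3 gave -0.17, -0.18 and 0.10 for the nuclear set (-0.13). In myeloid cells the mitochondrial set (-0.13) stood at -0.03 under 5%, -0.08 by the median of ratios, -0.08 with cells weighted alike, 0.17 under the stricter gate and -0.18 at 10000 to 20000 UMIs. The myeloid nuclear set (-0.13) stood at -0.08 by the median of ratios and -0.02 at that depth, and the mitochondrial to nuclear ratio (0.00) at 0.11 under 5%, 0.31 under the stricter gate and -0.15 at that depth. Among named genes past 1.2-fold, 3 turned sign in cells of 10000 to 20000 UMIs: Ndufs1 in T cells at 0.32, Ndufc1 in T cells at 0.19 and Cox5a in myeloid cells at 0.06. Smaller ratios also crossed 0 there, such as those of Atp5g3 (0.23) and Cox4i1 (0.34) in T cells. Counts of nuclear members past 1.2-fold also moved with these settings, but the matching share of all genes was taken at the main setting only. The median over the nuclear members went from -0.02 to -0.10 in A20 cells by the median of ratios. At 10000 to 20000 UMIs it went from -0.15 to 0.12 in T cells and from -0.16 to -0.04 in myeloid cells. That depth left 10 and 12 T cells and 12 and 22 myeloid cells, and the stricter gate 37 and 49 T cells. Beyond these smaller numbers of cells, the causes were not tested. Dropping the limit on detected genes changed no value.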

Other observations

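Cytochrome c, the soluble carrier between complexes III and IV, was higher with TAK-981 in myeloid cells: Cycs was at 5.81 UMIs per 10000 with TAK-981 and 2.73 with vehicle, from 211 and 146 UMIs (log2 1.09, 0.78 to 1.40). It was level in A20 cells (-0.02, -0.05 to 0.02) and in T cells (0.02, -0.34 to 0.37). In the same myeloid cells the complexes on either side of it, pooled over their nuclear genes, stood at 0.06 (-0.07 to 0.18) for complex III and -0.12 (-0.19 to -0.05) for complex IV. Pnpt1, the mitochondrial polynucleotide phosphorylase, had 22 and 4 UMIs in myeloid cells (3.02, 1.46 to 5.01), 12 and 7 in T cells (1.73, 0.27 to 3.31), and 916 and 1300 in A20 cells (0.15, 0.02 to 0.27). Both genes were picked for these values.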
